A study of Homo sapiens with 6 samples.

Results

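The miR-30 family was followed through small RNA libraries of extracellular vesicles (EVs) from MDA-MB-231, a human triple-negative breast cancer cell line. Its members were taken by name from the table of miRNA counts and were the guide strands hsa-miR-30a-5p, hsa-miR-30b-5p, hsa-miR-30c-5p, hsa-miR-30d-5p and hsa-miR-30e-5p and the 2 most abundant opposite arms, hsa-miR-30a-3p and hsa-miR-30e-3p, together 7 of 832 miRNAs. All 7 had a count in all 6 libraries and entered the tests, which covered 517 miRNAs. Both groups were EVs pelleted by ultracentrifugation from medium of MDA-MB-231 cells grown with EV-free serum. In 231 EV (n = 3) the cells were wild type, and in 231/ACO1 KD EV (n = 3) ACO1 was knocked down. ACO1 is the cytosolic aconitase, which acts as an RNA-binding protein when it lacks its iron-sulfur cluster, and the study asked whether it takes part in loading miRNAs into EVs. The knockdown itself could not be checked in these libraries, which hold miRNAs and no mRNA. The parental cells' own small RNA was not analysed here, so every value is a share of what the EVs carried, and a change in secretion and a change in the cells cannot be told apart.

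miRNAs are cut from hairpin precursors in which the 5′ arm (5p) and the 3′ arm (3p) pair with each other. One arm, the guide, is usually kept in the Argonaute protein and finds target mRNAs through its seed, while the other, the passenger strand, is mostly degraded. In the miR-30 family the 5p arms are the main guides. The family is known for restraining epithelial-to-mesenchymal transition, with the transcription factor SNAI1 among its targets, and for its role in the differentiation of epithelial and fat cells.

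The mature sequences below show what the members share and where they part. They were taken from RefSeq on GRCh38.p14, run 5′ to 3′ and have the seed (bases 2 to 8) in capitals, and 5 of the 7 members matched an entry.
hsa-miR-30a-5p: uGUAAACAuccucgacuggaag
hsa-miR-30e-5p: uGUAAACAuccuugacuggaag
hsa-miR-30c-5p: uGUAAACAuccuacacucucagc
hsa-miR-30a-3p: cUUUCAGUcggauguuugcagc
hsa-miR-30e-3p: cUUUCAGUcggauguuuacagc
The 3 guides shown shared the seed GUAAACA, which no other miRNA of the table with a sequence carried. The guides hsa-miR-30b-5p and hsa-miR-30d-5p had no matching entry, so neither their seeds nor their likeness to the other members could be compared. The 3p arms shared a different seed, UUUCAGU, again with no other miRNA of the table with a sequence. Counting from 1 at the 5′ end, hsa-miR-30a-5p and hsa-miR-30e-5p differed at 1 position, written C13U with the base of hsa-miR-30a-5p first. Their opposite arms also differed at 1 position, G18A in the same order. hsa-miR-30c-5p shared the first 12 bases of hsa-miR-30a-5p and differed from it at 5 of the later positions up to its end. How the authors assigned reads with a mismatch is not given in the sources used here, so counts of these near-identical pairs may be split between them.

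The precursor of the most abundant member is shown because it places both of its counted arms. The hairpin MIR30A spans 71 bases at chr6:71403551-71403621 on the minus strand of GRCh38, and both arms are in capitals.
MIR30A: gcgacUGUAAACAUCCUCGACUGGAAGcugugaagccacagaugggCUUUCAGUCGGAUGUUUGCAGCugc
Within it, hsa-miR-30a-5p lies at chr6:71403595-71403616 and hsa-miR-30a-3p at chr6:71403554-71403575, with a loop of 19 bases between the arms. On the same build hsa-miR-30e-5p lies at chr1:40754371-40754392 and hsa-miR-30e-3p at chr1:40754413-40754434, both on the plus strand. hsa-miR-30c-5p lies at chr1:40757300-40757322 on the plus strand and at chr6:71377003-71377025 on the minus strand. MIR30A and MIR30C2 are annotated by GENCODE release 29 in introns of the long noncoding RNA LINC00472, on the same strand, 26519 bases apart. MIR30E (chr1:40754355-40754446, plus strand) and MIR30C1 (chr1:40757284-40757372, plus strand) lie 2837 bases apart in introns of NFYC, which encodes a subunit of the transcription factor NF-Y. hsa-miR-30c-5p is made from both MIR30C1 and MIR30C2, and its reads cannot be assigned to either.

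The hairpins MIR30B and MIR30D lie 4268 bases apart on the same strand, with no annotated gene over either.

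Total counts ranged from 224948 to 230562 in 231 EV and were 175924, 67873 and 157322 in 231/ACO1 KD EV replicates 1, 2 and 3. hsa-miR-21-5p, the most abundant miRNA in 231 EV, took 28.5, 31.2 and 30.2% of the counts in 231 EV against 12.2, 11.7 and 18.4% in 231/ACO1 KD EV. The deposited TPM (here each count relative to its library's total, scaled to one common sum) of every other miRNA moves with that share. For this reason changes are given both with TMM scaling, which sets the bulk of miRNAs level between libraries and is the main fit, and with library totals. Under TMM the median log2 fold change of all 517 tested miRNAs was -0.03, and under library totals it was 0.32. Ratios between members are also given, since they need no scaling. Nothing in the labels says that replicates were separate cultures, so p-values measure the spread between these libraries. edgeR estimates that spread by drawing on all miRNAs tested. Its SEs, intervals and p-values therefore rest mainly on the spread pooled over miRNAs and little on that of a single miRNA. Each SE was derived from the log2 fold change and its F statistic.

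The members formed a steep order, led by hsa-miR-30a-5p. hsa-miR-30a-5p was at 15510, 15028 and 14995 TPM in 231 EV against 15456, 13157 and 14645 TPM in 231/ACO1 KD EV, which ranked it at 15 of 832 by mean TPM. The groups overlapped, and the lowest value was that of 231/ACO1 KD EV replicate 2, the library with the fewest counts. In 231 EV its replicates varied with a CV of 1.90%, close to the 1.70% that counting error alone gives, and in 231/ACO1 KD EV the CV was 8.09% against 2.45%.

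hsa-miR-30e-5p, which differs from it at 1 position, was at 6357, 6744 and 5787 TPM in 231 EV against 7924, 6836 and 7958 TPM in 231/ACO1 KD EV. hsa-miR-30d-5p was at 4539, 4441 and 4955 TPM in 231 EV against 5849, 5790 and 5746 TPM in 231/ACO1 KD EV. In both guides each library of 231/ACO1 KD EV was above each of 231 EV, for hsa-miR-30e-5p by a narrow margin. Next came hsa-miR-30c-5p, with 1992, 1982 and 1729 TPM in 231 EV against 3064, 2932 and 2396 TPM in 231/ACO1 KD EV. The rarest guide, hsa-miR-30b-5p, had 542, 542 and 507 TPM in 231 EV against 972, 781 and 686 TPM in 231/ACO1 KD EV. These 2 guides had the wider gaps between groups, and replicate 1 was the highest library of 231/ACO1 KD EV in both.

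Of the opposite arms, hsa-miR-30a-3p was at 751, 724 and 729 TPM in 231 EV against 858, 1017 and 775 TPM in 231/ACO1 KD EV. hsa-miR-30e-3p was at 409, 321 and 373 TPM in 231 EV against 585, 722 and 458 TPM in 231/ACO1 KD EV. For both, replicate 2 of 231/ACO1 KD EV was the highest library, where they rested on only 69 and 49 counts. In deposited TPM the groups did not overlap for 6 of 7 members, all with 231/ACO1 KD EV above and all but hsa-miR-30a-5p. The same held for 22.6% of all miRNAs tested.

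**Figure D1:**
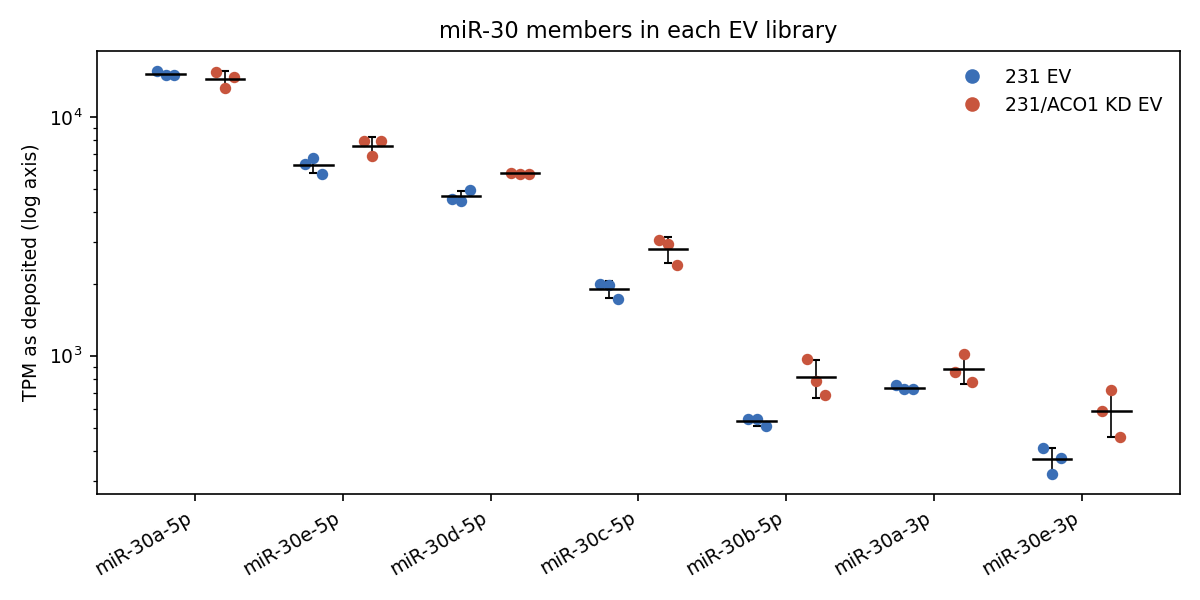
TPM of the 7 miR-30 members in each library on a log axis, with 231 EV in blue and 231/ACO1 KD EV in red. Points are libraries and bars are mean ± SD (n = 3), and the groups overlap for hsa-miR-30a-5p and for no other member.

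Going down this order, hsa-miR-30a-5p exceeded hsa-miR-30e-5p by 2.42 times in 231 EV and by 1.90 times in 231/ACO1 KD EV. hsa-miR-30e-5p exceeded hsa-miR-30d-5p by 1.35 and 1.30 times, and hsa-miR-30d-5p exceeded hsa-miR-30c-5p by 2.45 and 2.08 times. Each of these steps had the same direction in 6 of 6 libraries. Among the rarer members, hsa-miR-30a-3p was above hsa-miR-30b-5p in 5 of 6 libraries, by 1.39 times in 231 EV and 1.09 times in 231/ACO1 KD EV, and below it in 231/ACO1 KD EV replicate 1 (0.883 times). These neighbours did not differ beyond the spread between libraries in 231/ACO1 KD EV. Ligation and PCR favour some small RNAs over others, so the order is one of reads and not of molecules.

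As a family, the 5 guides took 2.89, 2.87 and 2.80% of the counts in 231 EV against 3.33, 2.95 and 3.14% in 231/ACO1 KD EV. With the 3p members the share was 2.97 ± 0.0525% (SD, n = 3) and 3.29 ± 0.175% (SD, n = 3). The direction of the family sum depended on the scale. In TMM-scaled CPM the guides summed to 32313 ± 871 (SD, n = 3) in 231 EV and to 27811 ± 2822 (SD, n = 3) in 231/ACO1 KD EV. No change of the family as a whole can therefore be stated.

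The first question was which members changed when ACO1 was knocked down. Only hsa-miR-30a-5p, the most abundant member, was past an adjusted p of 0.05 with TMM scaling, and it fell. It had 16953, 16741 and 17848 TMM-scaled CPM in 231 EV against 13945, 10986 and 13414 in 231/ACO1 KD EV. Every 231/ACO1 KD EV library was below every 231 EV library. On this scale the groups did not overlap, in either direction, for 126 of the 517 miRNAs tested. Among the members this held for 2 of 7, the other being hsa-miR-30b-5p, with 231/ACO1 KD EV above. The log2 fold change of hsa-miR-30a-5p was -0.43 (SE 0.13, 95% interval -0.69 to -0.16, adjusted p = 0.0226, quasi-likelihood F-test of edgeR, Benjamini-Hochberg adjustment over the 517 miRNAs). Thus 1 of 7 members was called lower and 0 higher, beside 6% and 2.51% of all miRNAs tested. A single call among 7 is read as one of hsa-miR-30a-5p and not of the family.

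The call on hsa-miR-30a-5p was not robust. With library totals its log2 fold change was -0.07 (SE 0.13, adjusted p = 0.774, edgeR), and the groups overlapped. The call was also lost with TMM scaling when 231 EV replicate 1, 2 or 3 was left out (edgeR adjusted p = 0.118, 0.0895 and 0.122), although the log2 fold change stayed at -0.42, -0.44 and -0.40 with these fewer libraries. When 231/ACO1 KD EV replicate 2 was left out, the log2 fold change was -0.32 (edgeR adjusted p = 0.207). Without replicate 1 or 3 of that group it was -0.47 and -0.45, and the call stayed (edgeR adjusted p = 0.0224 and 0.00215). Relative to the median of all miRNAs tested, hsa-miR-30a-5p stood at -0.39 on either scale. A change of scale moves each miRNA and the median nearly alike, so this equality does not bear on how robust the call is.

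The other guides showed no call with TMM scaling. For hsa-miR-30c-5p the log2 fold change was 0.20 (SE 0.17, 95% interval -0.13 to 0.54, edgeR adjusted p = 0.643) and for hsa-miR-30b-5p it was 0.27 (SE 0.23, 95% interval -0.19 to 0.72, edgeR adjusted p = 0.654). Without 231/ACO1 KD EV replicate 1 they were 0.13 and 0.11, and leaving out each library in turn gave 0.13 to 0.29 and 0.11 to 0.38. The values of hsa-miR-30d-5p (-0.04, SE 0.15, 95% interval -0.34 to 0.26) and hsa-miR-30e-5p (-0.08, SE 0.15, 95% interval -0.37 to 0.21) were near 0. These last 2 changed sign with library totals, where they stood at 0.32 and 0.27. With library totals the only member called was hsa-miR-30c-5p, which rose with a log2 fold change of 0.56 (SE 0.17, edgeR adjusted p = 0.0135), so that 1 of 7 members was called higher and 0 lower, beside 11.2% and 2.51% of all miRNAs tested. hsa-miR-30b-5p stood at 0.62 (SE 0.23) on that scale, with an adjusted p of 0.0564 from edgeR. Relative to the median of all miRNAs, hsa-miR-30c-5p stood at 0.23 and hsa-miR-30b-5p at 0.30 under TMM.

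Neither 3p member was called on either scale. hsa-miR-30e-3p had a log2 fold change of 0.30 (SE 0.25, 95% interval -0.19 to 0.79, edgeR adjusted p = 0.637) under TMM and 0.66 (SE 0.25, edgeR adjusted p = 0.065) with library totals. Under TMM it was 0.19 without 231/ACO1 KD EV replicate 2 and ranged up to 0.44 as each library was left out in turn. hsa-miR-30a-3p had -0.10 (SE 0.22, 95% interval -0.53 to 0.33) under TMM and 0.26 (SE 0.22) with library totals, and changed sign with the scale. The median over the 7 members was -0.04 under TMM and 0.32 with library totals, against -0.03 and 0.32 over all miRNAs tested.

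**Figure D2:**
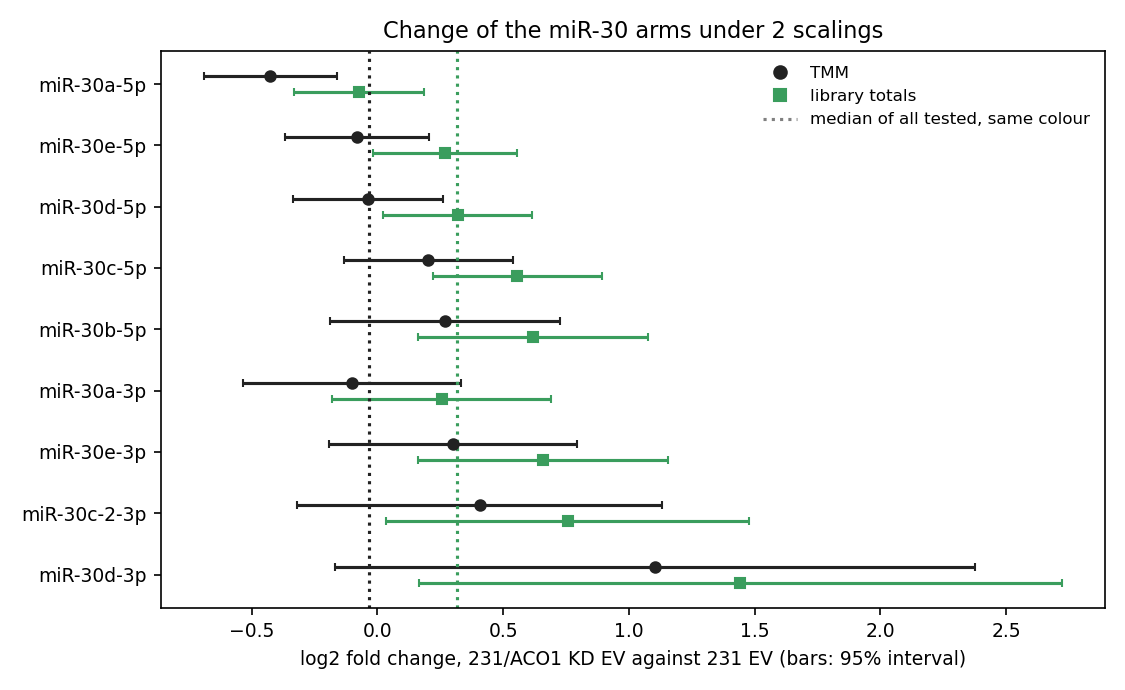
Log2 fold change of the 7 members and of 2 rarer arms between 231/ACO1 KD EV and 231 EV (positive values are higher in 231/ACO1 KD EV), with TMM scaling (black circles) and with library totals (green squares). Bars are 95% intervals and dotted lines are the medians of all 517 miRNAs at -0.03 and 0.32, and hsa-miR-30a-5p lies farthest below either line.

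For comparison, hsa-miR-16-5p, a reference miRNA in the study's RT-qPCR, had a log2 fold change of -0.04 (SE 0.12, edgeR adjusted p = 0.914) under TMM and 0.32 with library totals, as far from 0 as the median on each scale. hsa-miR-33a-5p, the miRNA the study ties to ACO1, had -1.10 (SE 0.32, edgeR adjusted p = 0.0116) under TMM and -0.77 (SE 0.32, edgeR adjusted p = 0.0919) with library totals. It rested on 50, 58 and 30 counts in 231 EV against 18, 6 and 24 in 231/ACO1 KD EV, and its groups overlapped in TPM. The 95% interval of hsa-miR-33a-5p under TMM (-1.74 to -0.47) overlaps that of hsa-miR-30a-5p, and the difference between them was not tested.

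Shares within the family need no scaling, and in them hsa-miR-30a-5p was lower in every 231/ACO1 KD EV library. hsa-miR-30a-5p made up 53.6, 52.3 and 53.6% of the summed guide reads in 231 EV against 46.5, 44.6 and 46.6% in 231/ACO1 KD EV. The groups were well apart, and the mean share was 53.2 ± 0.754% (SD, n = 3) against 45.9 ± 1.11% (SD, n = 3), a difference of -7.28 percentage points (two-sided exact permutation p = 0.1, the smallest that 3 against 3 libraries can give). For a single library the 95% Wilson interval of this share reached from 52.4 to 54.8% in 231 EV replicate 1 and from 42.4 to 46.8% in 231/ACO1 KD EV replicate 2, the shallowest library, and these intervals cover counting error only. Leaving out each library in turn moved the difference to between -7.71 and -6.64 points.

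All 4 other guides had a higher mean share in 231/ACO1 KD EV. The share of hsa-miR-30c-5p was 6.88, 6.90 and 6.18% in 231 EV against 9.21, 9.94 and 7.62% in 231/ACO1 KD EV (means 6.65 ± 0.409% and 8.92 ± 1.18%, SD, n = 3, exact permutation p = 0.1). That of hsa-miR-30b-5p was 1.87, 1.89 and 1.81% against 2.92, 2.65 and 2.18% (means 1.86 ± 0.0403% and 2.58 ± 0.373%, SD, n = 3, exact permutation p = 0.1). For both, the groups did not overlap. hsa-miR-30d-5p averaged 16.3 ± 1.24% and 18.5 ± 1.04% (SD, n = 3) and hsa-miR-30e-5p 22.0 ± 1.39% and 24.1 ± 1.10% (SD, n = 3), with overlapping groups and an exact permutation p of 0.2 each. Shares add up to a fixed sum, so a lower share of hsa-miR-30a-5p and higher shares of the other guides go together. Shares alone cannot tell which of the guides changed.

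Ratios of reads, which need neither a scale nor a fixed sum, gave the same picture. Per 100 reads of hsa-miR-30a-5p there were 41.5 ± 3.17 reads of hsa-miR-30e-5p in 231 EV and 52.5 ± 1.61 in 231/ACO1 KD EV (SD, n = 3). For hsa-miR-30d-5p they numbered 30.6 ± 2.11 and 40.4 ± 3.23, for hsa-miR-30c-5p 12.5 ± 0.875 and 19.5 ± 2.97, and for hsa-miR-30b-5p 3.49 ± 0.114 and 5.64 ± 0.841 (SD, n = 3). In all 4 ratios the groups did not overlap, with an exact permutation p of 0.1 each. These ratios share their denominator and are not independent. Of all miRNAs tested, 24.6% had a ratio to hsa-miR-30a-5p that was higher in every 231/ACO1 KD EV library than in every 231 EV library.

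Among the remaining guides the groups overlapped. Reads of hsa-miR-30b-5p per 100 of hsa-miR-30c-5p averaged 28.0 ± 1.16 in 231 EV and 29 ± 2.56 in 231/ACO1 KD EV (exact permutation p = 0.7, n = 3). Reads of hsa-miR-30d-5p per 100 of hsa-miR-30e-5p averaged 74.3 ± 10.2 and 76.9 ± 6.80 (exact permutation p = 0.6, n = 3). For guides that neighbour each other on the genome, hsa-miR-30b-5p per 100 reads of hsa-miR-30d-5p averaged 11.5 ± 1.08 and 14.0 ± 2.38, and hsa-miR-30c-5p per 100 reads of hsa-miR-30e-5p averaged 30.2 ± 1.01 and 37.2 ± 6.51 (exact permutation p = 0.2 each, n = 3).

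The second question was whether the arms of a hairpin were carried in the same proportion. In MIR30A and MIR30E the 5p arm dominated in every library. Per 100 reads of hsa-miR-30a-5p there were 4.84, 4.82 and 4.86 reads of hsa-miR-30a-3p in 231 EV against 5.55, 7.73 and 5.30 in 231/ACO1 KD EV. The 231 EV libraries were nearly equal, the 231/ACO1 KD EV libraries were all higher, and replicate 2 of the latter stood farthest out. The 95% Wilson interval for the 3p share of both arms' reads, which covers counting error only, was 3.99 to 5.35% in 231 EV replicate 1. It was overlapped by those of 231/ACO1 KD EV replicates 1 (4.50 to 6.14%) and 3 (4.23 to 5.97%) and not by that of replicate 2 (5.71 to 8.98%).

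For MIR30E there were 6.43, 4.76 and 6.45 reads of hsa-miR-30e-3p per 100 of hsa-miR-30e-5p in 231 EV against 7.39, 10.6 and 5.75 in 231/ACO1 KD EV, and the groups overlapped. In a fit of the arm by group term over 125 hairpins with both arms in the table, the log2 change of 3p over 5p was 0.32 for MIR30A (SE 0.21, 95% interval -0.17 to 0.81, edgeR adjusted p = 0.595). It was 0.37 for MIR30E (SE 0.28, 95% interval -0.27 to 1.01, edgeR adjusted p = 0.642). An exact permutation test of the log2 ratio gave p = 0.1 for MIR30A and p = 0.3 for MIR30E (n = 3 per group). Without 231/ACO1 KD EV replicate 2 the changes were 0.16 and 0.17. The edgeR test called 0% of the 125 hairpins, with 20 at an unadjusted p under 0.05, and the median change over all hairpins was 0.05. Changes higher than that of MIR30A were seen in 47 of the 125 hairpins, and higher than that of MIR30E in 44.

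The 2 passengers were also compared with each other. Per 100 reads of hsa-miR-30a-3p there were 50.0 ± 5.17 reads of hsa-miR-30e-3p in 231 EV and 66.1 ± 6.28 in 231/ACO1 KD EV (SD, n = 3, exact permutation p = 0.1). The groups did not overlap, and how many of all miRNAs would show this against hsa-miR-30a-3p was not counted. The guides of the same hairpins, described above, had the same direction. Over all libraries the 3p arm made up 4.93% of the reads of MIR30A and 6.02% of those of MIR30E, against a median of 29.4% over the 125 hairpins. This median pools hairpins led by either arm, and 70 of the 125 had more 5p reads. The 3p share was lower than in MIR30A in 30 of the 125 hairpins.

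**Figure D3:**
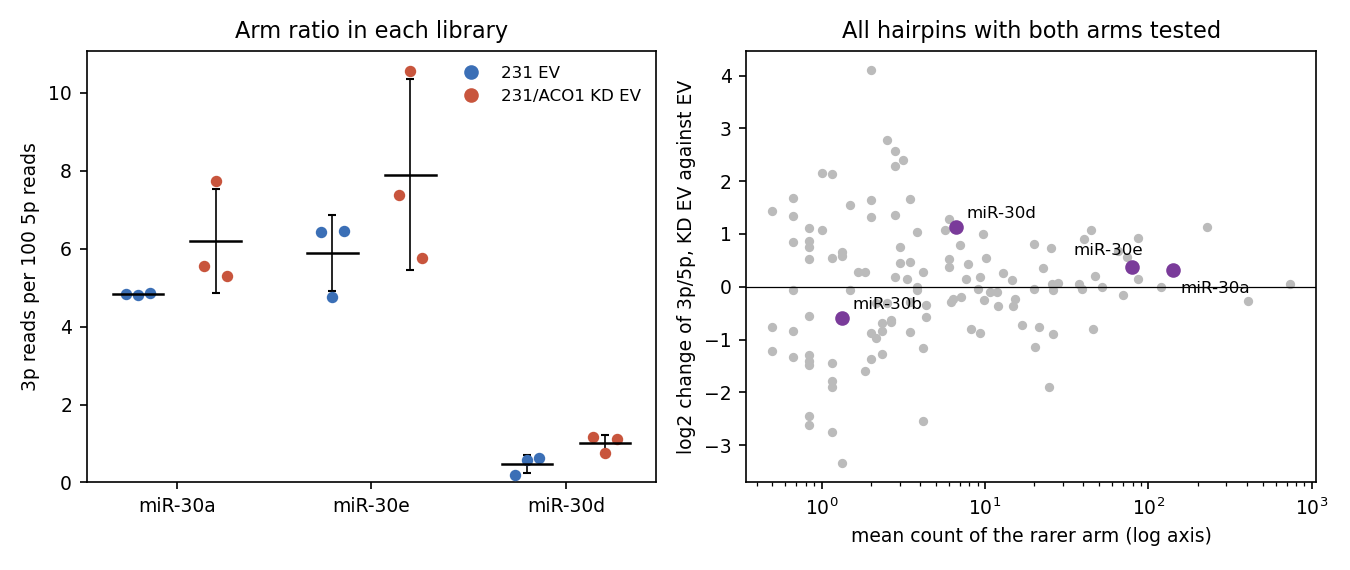
Left, reads of the 3p arm per 100 reads of the 5p arm of miR-30a, miR-30e and miR-30d in each library (231 EV blue, 231/ACO1 KD EV red, bars mean ± SD, n = 3). Right, log2 change of 3p over 5p between the groups for 125 hairpins against the mean count of the rarer arm (log axis), where miR-30a and miR-30e lie at 0.32 and 0.37 and changes spread widely at low counts.

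The 4 remaining arms of the family's hairpins were rare, and 0 of 4 were called in either direction on either scale. hsa-miR-30c-2-3p, the opposite arm of MIR30C2, had 16, 20 and 22 counts in 231 EV against 23, 14 and 19 in 231/ACO1 KD EV, and its log2 fold change was 0.41 under TMM (SE 0.37, edgeR adjusted p = 0.654). hsa-miR-30d-3p had 2, 6 and 7 counts in 231 EV against 12, 3 and 10 in 231/ACO1 KD EV, and its log2 fold change was 1.10 (SE 0.65, edgeR adjusted p = 0.370). At these counts a difference of this size was not detectable after adjustment. Its ratio to hsa-miR-30d-5p was 0.196, 0.586 and 0.628 reads per 100 in 231 EV against 1.17, 0.763 and 1.11 in 231/ACO1 KD EV, with no overlap and a log2 change of 1.14 (SE 0.46, edgeR adjusted p = 0.296 over the 125 hairpins, unadjusted 0.0392). A higher change was seen in 16 of the 125 hairpins. hsa-miR-30c-1-3p and hsa-miR-30b-3p had at most 7 counts in a library, and their log2 fold changes of 0.37 (SE 0.88) and -0.22 (SE 1.19) carry little information. hsa-miR-30b-3p was at 0 in 231/ACO1 KD EV replicate 3, where a count of 0 allows up to 19.1 TPM.

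Across the 6 libraries the pattern of hsa-miR-30a-5p was compared with that of 193 miRNAs of at least 100 mean TPM, by the root-mean-square difference of centred log2 values scaled by TMM. The most alike were hsa-miR-103a-3p (0.0825), hsa-miR-148a-3p (0.104) and hsa-miR-374b-5p (0.112), none of them a relative in seed. Within the family hsa-miR-30e-5p ranked at 14 (0.184), hsa-miR-30d-5p at 27, hsa-miR-30a-3p at 36, hsa-miR-30c-5p at 101, hsa-miR-30b-5p at 108 and hsa-miR-30e-3p at 139. By this measure the arm from its own hairpin was less like hsa-miR-30a-5p than were the guides hsa-miR-30e-5p and hsa-miR-30d-5p. That arm was also rarer. In 231/ACO1 KD EV counting error alone gives it a CV of 9.74%, against 3.38 and 3.83% for these guides. Counting error adds to the measure, so these ranks cannot be read as a difference between arms. The ranks describe 6 libraries and carry no test.

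Short sequences that bear on the loading question were searched in the 715 miRNAs of the table with a RefSeq sequence, on the RNA strand as written. CAUUG, which the study marked in its docking model of hsa-miR-33a-5p and ACO1, was in 2.94% of them, and GGAG, CCCU and GGCU, tetranucleotides that have been tied to EV sorting, were in 11.7, 10.5 and 12.3%. None of these 4 was in any of the 5 members with a sequence, hsa-miR-30a-5p included. The sequence that the study mutated in its pulldown was the longer CAUUGC, which was not searched separately. Of the rarer arms, hsa-miR-30c-1-3p and hsa-miR-30c-2-3p held GGAG, and hsa-miR-30c-2-3p also held GGCU. A missing match says only that these letters are not in the sequence.

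miRNAs that mark other cells were present, and the leukocyte and platelet list and the red cell list differed between the groups without overlap in TPM. The leukocyte and platelet list (hsa-miR-223-3p, hsa-miR-142-3p, hsa-miR-142-5p, hsa-miR-150-5p) summed to 8200 to 9660 TPM in 231 EV against 13431 to 15171 TPM in 231/ACO1 KD EV, and hsa-miR-223-3p and hsa-miR-150-5p, 2 of its 4 miRNAs, rose under TMM. The red cell list (hsa-miR-451a, hsa-miR-486-5p, hsa-miR-144-3p) summed to 2009 to 2178 TPM in 231 EV against 1256 to 1634 TPM in 231/ACO1 KD EV, and hsa-miR-451a and hsa-miR-486-5p, 2 of its 3 miRNAs, fell under TMM. hsa-miR-122-5p of liver ranged from 1094 to 1324 TPM in 231 EV against 985 to 1887 TPM in 231/ACO1 KD EV, with overlap. The epithelial list of 6 (the miR-200 family and hsa-miR-205-5p) summed to 858 to 985 TPM in 231 EV against 619 to 992 TPM in 231/ACO1 KD EV. In TMM-scaled CPM this list was lower in 231/ACO1 KD EV without overlap (517 to 908, against 1021 to 1097 in 231 EV). Of its members hsa-miR-205-5p alone was called lower under TMM. These marker calls stand beside 2.51% higher and 6% lower of all miRNAs tested. None of these 14 miRNAs was at 0 in both groups. The miR-30 family is itself widely expressed, in blood and liver among other tissues, and the part of these other sources in the member values was not tested. With TMM factors computed without these blood and liver miRNAs, the log2 fold change of hsa-miR-30a-5p was -0.42 (edgeR adjusted p = 0.0206). This refit changed the scaling factors only and left the counts of hsa-miR-30a-5p as they were, so it cannot tell where those reads came from.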

How the data were processed

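The authors extracted RNA from EVs, made small RNA libraries and matched trimmed, size-selected reads to miRBase, with further miRNAs predicted. The submitters' processing notes name Bowtie2, StringTie and hg38, without versions. The deposited table gave raw read counts and TPM for 832 miRNAs (782 with a miRBase name, 50 predicted) in 6 libraries. Each deposited TPM equalled the CPM computed from the counts to within 4.99e-05. Counts are of reads, and 1 count was worth 4.34 to 14.7 TPM.

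Groups came from the sample labels. The test set was every miRNA detected in 3 or more libraries, tested with edgeR 4.0.16 (R 4.3.3) by quasi-likelihood F-test, with TMM factors, Benjamini-Hochberg adjustment (threshold 0.05) and no covariates. The biological coefficient of variation was 20.8%. Arm use was tested with library, arm and arm-by-group terms. Single values were compared by two-sided exact permutation tests. Tests were checked on simulated counts. Alternatives were library totals, size factors, DESeq2 1.42.0, limma 3.58.1 on log2(TPM + 1) and log2(TPM + 10), other filters, the robust option, a replicate block and each library left out. TMM factors without the miR-30 family or without blood and liver miRNAs were added after seeing the data.

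The named miRNAs are the 7 members, the 4 other arms, hsa-miR-16-5p, hsa-miR-33a-5p and the 3 most like hsa-miR-30a-5p. hsa-miR-21-5p was added for its share of the counts. Members, lists and tests were chosen with earlier results of these data known. Replicates differed beyond counting noise. Chi-square over degrees of freedom was 4.22 to 5.18 between pairs of 231 EV. In 231/ACO1 KD EV it was 8.91 for replicates 1 and 2, 28.1 for 1 and 3 and 22.0 for 2 and 3, so replicate 3 stood farthest from the others. Mature sequences are from RefSeq, where 715 of 782 names matched, and hairpin annotation is from GENCODE release 29.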

Additional observations from a re-analysis of the deposited data

How the results depend on the processing

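hsa-miR-30a-5p was below 0 in 17 of 17 settings and past the threshold in 10, with adjusted p-values from 0.00215 to 0.774. It was at -0.073 with library totals and at -0.077 with limma on log2(TPM + 1) and log2(TPM + 10), where hsa-miR-30b-5p (0.60 and 0.59), hsa-miR-30c-5p (0.55 and 0.55) and hsa-miR-30e-3p (0.66 and 0.65) passed the threshold, as did hsa-miR-30c-5p with library totals (0.56). These settings scale by the total, of which hsa-miR-21-5p takes less in 231/ACO1 KD EV. Signs changed for hsa-miR-30d-5p (0.32 with library totals, 0.0034 with size factors, 0.0032 with DESeq2, 0.32 and 0.32 with limma), hsa-miR-30e-5p (0.27, and 0.27 and 0.27 with limma), hsa-miR-30a-3p (0.26, and 0.26 and 0.25 with limma) and hsa-miR-30b-3p (0.10 with library totals, 0.060 with DESeq2, 0.12 with limma on log2(TPM + 10)), none of them called. Leaving out 1 library gave ranges of -0.47 to -0.32 for hsa-miR-30a-5p, -0.078 to 0.045 for hsa-miR-30d-5p (above 0 without replicate 3 of 231 EV, and 0.0075 when replicate 2 of 231/ACO1 KD EV was dropped) and -0.134 to 0.026 for hsa-miR-30e-5p (above 0 only when replicate 2 of 231/ACO1 KD EV was dropped). hsa-miR-30b-3p ranged from -1.41 to 0.43 (above 0 without replicate 1 of 231 EV and with replicate 1 or 3 of 231/ACO1 KD EV dropped), and hsa-miR-30c-1-3p from -0.44 to 0.73 (below 0 with replicate 1 of 231/ACO1 KD EV dropped).

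The count of all miRNAs past an adjusted p of 0.05 was 44 with edgeR and TMM, 71 with library totals, 75 and 76 with limma on log2(TPM + 1) and log2(TPM + 10), and 19 to 65 with 1 library left out. Arm changes and guide shares kept their direction in all settings run. The correlation of same-numbered libraries over 226 miRNAs was above 0.1 for replicate 3 (0.23) and not for replicates 1 and 2 (-0.14 and 0.04), so the numbers were not taken as pairs, and the replicate block gave 44 calls and -0.43 for hsa-miR-30a-5p (adjusted p = 0.0388) and changed no other member's call. hsa-miR-30b-3p and hsa-miR-30c-1-3p were too rare for the depth.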

Other observations

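Calls among carriers of the searched sequences depended on the scale. CAUUG, absent from the 5 miR-30 members with a sequence, was carried by 18 of the miRNAs tested. With TMM scaling 6 of these were called lower and 0 higher (edgeR, adjusted p under 0.05), beside 6% lower and 2.51% higher of all miRNAs tested, and their median log2 fold change was -0.50, against -0.03 over all. With library totals 1 was called lower (hsa-miR-221-3p) and 3 higher (hsa-miR-25-3p, hsa-miR-199a-3p and hsa-miR-199b-3p, named after their values were seen), beside 2.51% and 11.2%, and the median was -0.15, against 0.32 over all. hsa-miR-199a-3p and hsa-miR-199b-3p had nearly the same summed counts, 821 each in EVs of wild-type cells, and 832 and 830 with ACO1 knocked down. Both may rest largely on the same reads, so the 3 higher calls may not all be separate. The other sequences searched also had no higher call with TMM scaling. GGCU had 8 lower of 50 tested (median -0.34), GGAG 4 of 32 (median 0.10) and CCCU 2 of 40 (median 0.07). With library totals their calls were 1 lower and 3 higher, 0 lower and 2 higher, and 1 lower and 4 higher. The 6 CAUUG carriers called lower with TMM scaling were hsa-miR-33a-5p, hsa-miR-221-3p, hsa-miR-181b-5p, hsa-miR-107, hsa-miR-23a-3p and hsa-miR-103a-3p. On that scale hsa-miR-221-3p had a log2 fold change of -0.87 (SE 0.13, adjusted p = 7.47e-09) and hsa-miR-107 of -0.75 (SE 0.17, adjusted p = 0.000311). hsa-miR-103a-3p had -0.45 (SE 0.13, adjusted p = 0.0118), close to the -0.43 of hsa-miR-30a-5p, which lacks the sequence. The pairs hsa-miR-103a-3p and hsa-miR-107, and hsa-miR-23a-3p and hsa-miR-23b-3p, are near-identical and may share reads, and the study drew the sequence from hsa-miR-33a-5p, so these counts are descriptions and were given no test. They are for CAUUG, and how many of the carriers hold the longer CAUUGC of the study's pulldown was not counted.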
